A study of Mus musculus with 8 samples.

Results

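The genes described here are 9 genes listed for the 2-cell-like state of mouse embryonic stem cells: Zscan4c, Zscan4d, Zscan4f, Tcstv1, Tcstv3, Zfp352, Eif1a, Tmem92 and Sp110. They were taken as a fixed list of symbols and matched to the Ensembl identifiers of the deposited files. Of the 9, 7 were among the 17812 identifiers in the files. The other two, Tcstv1 and Tcstv3, had no row and were not analysed here. RNA had been measured in 8 samples of the mouse embryonic stem cell line E14TG2a (strain 129/Ola), 2 samples in each of 4 groups. The groups were unedited cells (WT) and cells in which 1 of 3 enhancers had been knocked out with CRISPR/Cas9 (E1-KO, E2-KO and E3-KO). All groups were grown on gelatin without feeder cells, in medium with serum, leukaemia inhibitory factor, the GSK3 inhibitor CHIR99021 and the MEK inhibitor PD0325901. The study's interest was how promoters and enhancers associate and what this means for the functions of Sox2. The labels give neither the positions of the enhancers nor the number of clones behind a knockout, and no edited cells with intact enhancers were analysed here. Each comparison with WT therefore also holds any difference of clone, culture or library, which cannot be told apart from the enhancer loss.

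A small share of the cells in an embryonic stem cell culture passes at any time through a state that resembles the embryo at the 2-cell stage. Such cells transcribe genes of the zygotic genome activation, among them the Zscan4 cluster, which codes for zinc finger proteins that take part in telomere maintenance, and transcripts that start in MERVL endogenous retroviruses. The transcription factor Dux drives many of these genes, Dppa2 and Dppa4 act upstream of it, and repressors such as Trim28, Setdb1, the histone methyltransferases Ehmt1 and Ehmt2 and chromatin assembly factor 1 hold the state back. In RNA from a whole culture, a change in the number of cells in the state and a change in the RNA per such cell cannot be told apart.

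The Zscan4 genes are copies of each other, so their sequences are shown first. In GRCm38 they lie on chromosome 7, Zscan4c from 11005745 to 11010547 (plus strand), Zscan4d from 11161374 to 11166159 (minus strand) and Zscan4f from 11397915 to 11402318 (plus strand). All 3 have a coding sequence of 1518 bases in the GENCODE M21 annotation. Zscan4c and Zscan4f differed at 6 of these bases (99.6% identity), and Zscan4d differed from each of them at 35 (97.7%). The stretch of 120 coding bases with the most differences, bases 646 to 765, is printed from the GENCODE M21 transcripts with the 9 positions at which the copies differ in capitals, to show how little separates them:
Zscan4c: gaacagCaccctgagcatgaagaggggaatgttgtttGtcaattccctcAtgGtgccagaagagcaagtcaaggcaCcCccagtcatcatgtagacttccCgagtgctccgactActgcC
Zscan4d: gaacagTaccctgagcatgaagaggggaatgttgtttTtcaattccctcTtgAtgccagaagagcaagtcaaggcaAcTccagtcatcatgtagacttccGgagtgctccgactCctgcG
Zscan4f: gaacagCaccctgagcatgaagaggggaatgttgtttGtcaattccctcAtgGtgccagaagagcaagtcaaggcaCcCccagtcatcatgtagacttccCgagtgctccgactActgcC
Within this stretch Zscan4c and Zscan4f were identical and all 9 differences set Zscan4d apart.

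The same closeness held upstream of the genes. RefSeq promoter entries of GRCm38.p6 existed for 5 of the 9 genes. Each Zscan4 promoter held the letters TATAAA on the gene's own strand, counted from the gene start of the RefSeq entry, at 54 bases before it in Zscan4c (offset -54), 65 in Zscan4d (-65) and 31 in Zscan4f (-31). The RefSeq start of Zscan4d differs from the GENCODE start given above. Of all 32851 promoter entries of 300 bases, 13.6% held TATAAA on either strand. The 90 bases around it, with TATAAA in capitals, are shown because the summed level of the 3 copies rose in E3-KO, as described further on:
Zscan4c (chr7:11005631-11005720, plus): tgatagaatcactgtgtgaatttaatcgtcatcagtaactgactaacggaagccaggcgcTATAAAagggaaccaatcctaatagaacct
Zscan4d (chr7:11166184-11166273, minus): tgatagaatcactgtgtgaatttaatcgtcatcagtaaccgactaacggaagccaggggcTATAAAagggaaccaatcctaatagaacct
Zscan4f (chr7:11397824-11397913, plus): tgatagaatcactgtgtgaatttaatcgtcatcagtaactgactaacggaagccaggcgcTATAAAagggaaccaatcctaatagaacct
The stretches of Zscan4c and Zscan4f were identical, and that of Zscan4d differed from them at 2 bases. The octamer ATGCAAAT, present in 1.74% of the promoter entries on either strand, was not found in these windows.

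A single read of 150 bases, the length sequenced here, could often not be assigned to 1 copy. The reads were paired, and the shares below take each stretch alone, without the other read of its pair. Of the 1680 stretches of 150 bases in the Zscan4f transcript, 86.2% occurred base for base in the transcript of at least 1 other gene. This share was 61.0% for Zscan4c and 13.0% for Zscan4d. Zscan4f shared 56.8% of its stretches with Zscan4c and 69.0% with the pseudogene Zscan4-ps2, which had no row in the files, nor had Zscan4a, Zscan4b and Zscan4e. In Sp110, 10.8% of the stretches occurred in another gene. For Zfp352, Tmem92, Eif1a, Tcstv1 and Tcstv3 no shared stretch was found. How the authors divided shared reads is not given in the sources used here, so the levels of single Zscan4 copies are uncertain, and their sum is given beside them.

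**Figure D1:**
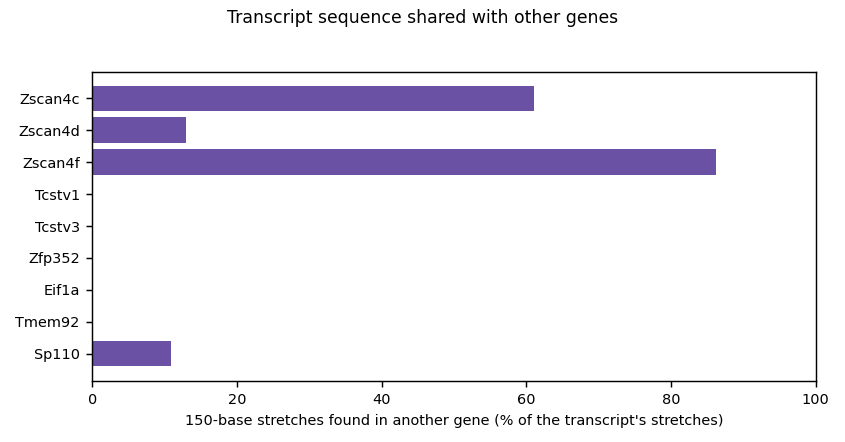
Share of all 150-base stretches in the transcript of each of the 9 genes (horizontal axis, percent) that occur base for base in a transcript of another gene of the GENCODE M21 annotation. Zscan4f reaches 86.2%, Zscan4c 61.0%, Zscan4d 13.0% and Sp110 10.8%, and the other genes have none.

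Levels are given as FPKM (fragment counts divided by transcript length and by the depth of the library), with the mean ± SD of the 2 samples where a group is summarised. The number of fragments behind a value is unknown. The sum of all values in a sample lay between 454974 (E3-KO replicate 2) and 532007 (E2-KO replicate 1), with 488330 the next highest (E1-KO replicate 1). From 11110 (E2-KO replicate 1) to 11298 (E3-KO replicate 1) genes per sample reached 1 FPKM. The part of these differences in the results below was not tested. All 7 markers of embryonic stem cells looked up (such as Pou5f1 and Nanog) were well expressed, with means over the 8 samples from 98.1 to 487.1 FPKM. Fold changes are differences of log2(FPKM + 1), a scale that compresses differences between low values, and were tested with limma-trend, with p-values adjusted by the Benjamini-Hochberg method over all genes tested and called under 0.05. The main test took genes whose mean over the 8 samples reached 1 FPKM, and only Eif1a of the 7 met this. The 6 other genes were therefore tested in a second fit over all 17774 identifiers above 0 in some sample, and the Zscan4 sum as a row of its own in the main test.

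Eif1a, a gene on chromosome 18 (46597701 to 46616456, plus strand) related to the translation initiation factor eIF1A, stood far above the others at 88.3 and 83.3 FPKM in WT. It was 74.8 and 77.8 in the E1-KO pair, 94.6 and 72.9 in the E2-KO pair and 79.8 and 75.1 in the E3-KO pair. The samples of E1-KO and E3-KO lay below both WT samples, whereas those of E2-KO lay on either side of them. The differences from WT did not pass the test and were -0.17 (E1-KO), -0.05 (E2-KO) and -0.15 (E3-KO), with a standard error of 0.125 each (limma-trend adjusted p = 0.321, 0.792 and 0.371). In the main test, which called 0 of 1 listed genes in each of the 6 comparisons (0 also at an unadjusted p under 0.05), 38.0% of all genes were called for E1-KO against WT, 36.1% for E2-KO and 44.7% for E3-KO. With each sample scaled by its median ratio the sign turned in E2-KO (0.034) and E3-KO (0.023). The mean level of Eif1a over the 8 samples was 80.8 FPKM, while none of the other 6 genes reached 1. At this high level in every group, Eif1a did not behave here as a marker of a small share of the cells.

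The Zscan4 copies were low in every sample, and for each copy both E3-KO samples lay above both WT samples. Zscan4f was 0.688 and 0.398 FPKM in WT, 0.316 and 0.836 in the E1-KO pair, 1.29 and 0.674 in the E2-KO pair and 1.88 and 1.71 in the E3-KO pair. Both E3-KO samples were above all 6 others, which overlapped. Zscan4d was 0.144 and 0.261 FPKM in WT, 0.451 and 0.586 in the E1-KO pair, 0.801 and 0.480 in the E2-KO pair and 0.832 and 0.717 in the E3-KO pair. All 6 knockout samples of Zscan4d lay above both WT samples, and the 3 knockouts were closer to each other than to WT. Zscan4c was 0.374 and 0.226 FPKM in WT, 0.460 and 0.433 in the E1-KO pair, 0.974 and 0.478 in the E2-KO pair and 0.638 and 1.23 in the E3-KO pair. Here too every knockout sample was above both WT samples, and the samples of E2-KO and of E3-KO were far apart.

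In the fit over all genes Zscan4f rose in E3-KO by 0.86 (standard error 0.214, limma-trend adjusted p = 0.0251). Set against E1-KO directly, its E3-KO level was higher by 0.85 (limma-trend adjusted p = 0.0414). This call was lost with a pseudocount of 0.1, a replicate block or quantile normalization (limma-trend adjusted p = 0.0628, 0.0632 and 0.0526). Zscan4f also missed when any 1 sample of those 2 groups or of WT was left out (log2 fold changes 0.61 to 1.09). Its change in E1-KO (0.02) and E2-KO (0.35) did not pass (limma-trend adjusted p = 1.0 and 0.302). Zscan4d rose in E3-KO by 0.56 (standard error 0.115, limma-trend adjusted p = 0.0134) and by 0.44 in E2-KO (limma-trend adjusted p = 0.0383), with 0.34 in E1-KO (limma-trend adjusted p = 0.0819). Zscan4c differed from WT by 0.16, 0.40 and 0.56 in the 3 knockouts and passed in none of them (limma-trend adjusted p = 0.613, 0.186 and 0.0648), though it did pass in E3-KO without E3-KO replicate 1 (0.78, limma-trend adjusted p = 0.0493). The calls of the single copies in E3-KO were lost when 1 sample of WT or of E3-KO was left out. The limma-trend adjusted p then lay between 0.0507 and 0.0895 for Zscan4d and between 0.0776 and 0.16 for Zscan4f. The rise of Zscan4d in E2-KO was lost without WT replicate 1, WT replicate 2 or E2-KO replicate 1 (limma-trend adjusted p = 0.187, 0.113 and 0.136), among others, and with a replicate block (0.061).

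The sum over the 3 copies depends less on how reads are divided among them, but FPKM divides by transcript length (2276, 2272 and 1829 bases for Zscan4c, Zscan4d and Zscan4f), so the division still moves it. Summed, Zscan4 averaged 1.05 ± 0.227 FPKM in WT (SD, n = 2 here and for the knockouts). The E1-KO samples averaged 1.54 ± 0.443, the E2-KO samples 2.35 ± 1.01 and the E3-KO samples 3.51 ± 0.223. By sample it was 1.21 and 0.886 in WT, 1.23 and 1.85 in the E1-KO pair, 3.07 and 1.63 in the E2-KO pair and 3.35 and 3.66 in the E3-KO pair. Both E3-KO samples were above the other 6, and the 2 E2-KO samples lay on either side of the higher E1-KO sample. The sum rose in E3-KO by 1.14 (standard error 0.224, limma-trend adjusted p = 0.0037) and by 0.68 in E2-KO (limma-trend adjusted p = 0.0414). The difference of 0.31 in E1-KO did not pass (limma-trend adjusted p = 0.309). Compared directly, the sum in E3-KO was higher than the E1-KO sum by 0.84 (limma-trend adjusted p = 0.0249), where 25.7% of all genes in the main test were called. This call was lost without E1-KO replicate 1 (0.66, limma-trend adjusted p = 0.159), E3-KO replicate 1 (0.0708) or E3-KO replicate 2 (0.0901). The sum did not pass in E3-KO against E2-KO (0.46, limma-trend adjusted p = 0.193) or E2-KO against E1-KO (0.38, limma-trend adjusted p = 0.401), where 15.5% and 0.823% of all genes were called. The rise in E3-KO passed in all 12 alternatives run for it (log2 fold changes 1.03 to 1.67). That in E2-KO did not pass with the replicate block (limma-trend adjusted p = 0.0555). The call was also lost without WT replicate 1 (0.79), WT replicate 2 (0.57) or E2-KO replicate 1 (0.37, log2 fold changes). Leaving out either E3-KO sample, outside that comparison, ended it too.

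**Figure D2:**
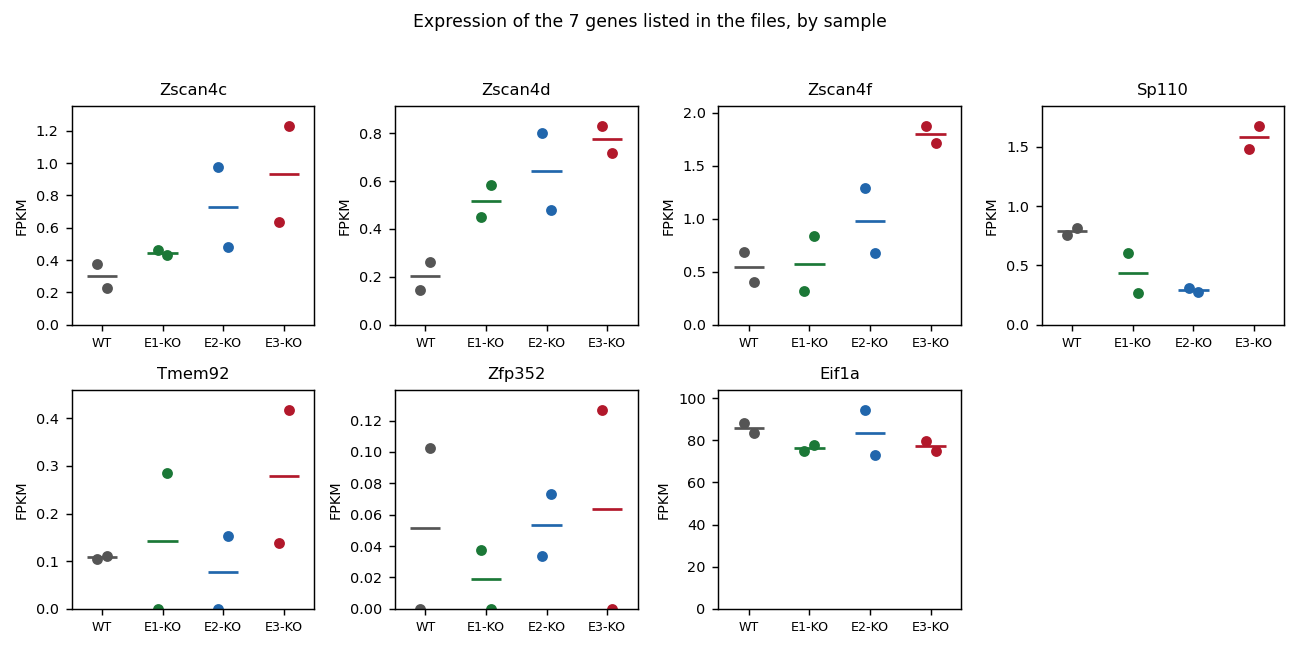
FPKM (vertical axis, linear, each panel with its own range from 0) of the 7 genes in WT, E1-KO, E2-KO and E3-KO; points are the samples, replicate 1 on the left, and lines the mean of 2. The E3-KO samples of Zscan4f (1.88 and 1.71) and Sp110 (1.48 and 1.68) stand above all others, and Eif1a lies between 72.9 and 94.6 throughout.

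Sp110, a nuclear body protein gene on chromosome 1 (85576899 to 85598817, minus strand), had another pattern. It was 0.754 and 0.820 FPKM in WT, 0.602 and 0.269 in the E1-KO pair, 0.306 and 0.280 in the E2-KO pair and 1.48 and 1.68 in the E3-KO pair. The E1-KO and E2-KO samples were all below both WT samples, and the E3-KO samples were above them. It fell in E2-KO (-0.47, standard error 0.123, limma-trend adjusted p = 0.0399) and rose in E3-KO (0.53, limma-trend adjusted p = 0.0204), while -0.33 in E1-KO did not pass (limma-trend adjusted p = 0.107). Compared directly, the E3-KO level of Sp110 was higher than its E1-KO level by 0.86 (limma-trend adjusted p = 0.00706) and higher than its E2-KO level by 1.00 (limma-trend adjusted p = 0.00919). The differences from WT were less firm than those between knockouts. With a pseudocount of 0.1 they did not pass in E2-KO (-1.17, limma-trend adjusted p = 0.0555) or E3-KO (0.92, limma-trend adjusted p = 0.0948). The E2-KO call was also lost with the replicate block (0.0604), median-ratio scaling (0.0548) and quantile normalization (0.0505). It was lost too when either E3-KO sample, outside that comparison, was left out. Leaving out either WT sample ended the calls as well, with a limma-trend adjusted p of 0.134 or 0.176 in E2-KO and 0.103 or 0.0914 in E3-KO. Leaving out either E2-KO sample (0.127 and 0.129) or either E3-KO sample (0.0553 and 0.0903) ended the call of that knockout, and E3-KO against E2-KO missed without E2-KO replicate 1 (0.0552).

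Tmem92 and Zfp352 were near 0. Tmem92, a transmembrane protein gene on chromosome 11 (94777217 to 94782703, minus strand), was 0.105 and 0.111 FPKM in WT, 0 and 0.286 in the E1-KO pair, 0 and 0.153 in the E2-KO pair and 0.139 and 0.418 in the E3-KO pair. Zfp352, a zinc finger gene on chromosome 4 (90218820 to 90225702, plus strand) that is transcribed in the 2-cell embryo, was 0 and 0.103 FPKM in WT, 0.0376 and 0 in the E1-KO pair, 0.0334 and 0.0732 in the E2-KO pair and 0.127 and 0 in the E3-KO pair. The groups of Zfp352 overlapped, and 3 of its 8 values were 0. The highest values of Zfp352 and Tmem92 were 3.81 and 3.97 times their smallest values above 0, so these levels may rest on very few fragments, and neither gene passed against WT in any knockout (limma-trend adjusted p of at least 0.371 in all 6 tests). For Tmem92 both E3-KO samples were above both WT samples.

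Over the 7 genes, both E3-KO samples were above both WT samples for 5 genes and below them for 1. Of all 17774 identifiers, 25.3% had both E3-KO samples above and 36.9% below. In E1-KO 2 genes were above and 2 below (27.5% and 35.5% of all identifiers), and in E2-KO 2 were above and 1 below (25.2% and 33.9%). The median log2 fold change of the 7 genes was 0.02 (E1-KO), 0.00 (E2-KO) and 0.53 (E3-KO), against -0.01, -0.02 and -0.03 over all identifiers. In the fit over all identifiers limma-trend called 0 of the 7 in E1-KO (2 at an unadjusted p under 0.05), where it called 22.7% of all genes (8.91% higher and 13.8% lower). It called 2 of the 7 in E2-KO, 1 in each direction, where 21.1% of all genes were called (8.14% higher and 13.0% lower). In E3-KO it called 3 of the 7, all higher, where 29.1% of all genes were called and 10.1% were called higher (19.0% lower). With median-ratio scaling 3 of the 7 were again called in E3-KO, and 14.5% of all genes were called higher and 12.8% lower. Between knockouts it called 2 genes in E3-KO against E1-KO (16.3% of all genes), 1 in E3-KO against E2-KO (7.99%) and 0 in E2-KO against E1-KO (0.00563% of all genes, and 0 of the 7 at an unadjusted p under 0.05). The 3 Zscan4 copies share reads and are not 3 separate observations. The comparisons with WT share the WT samples.

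**Figure D3:**
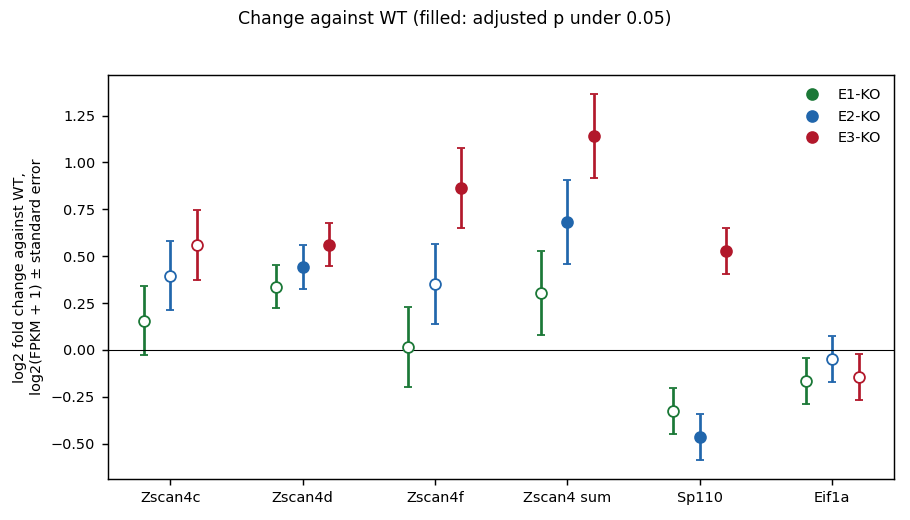
Log2 fold change against WT on the log2(FPKM + 1) scale (vertical axis, bars are the standard error) for the Zscan4 copies, their sum, Sp110 and Eif1a in the 3 knockouts, with filled points where the limma-trend adjusted p was under 0.05. The Zscan4 sum reaches 1.14 in E3-KO, Sp110 is below 0 in E1-KO and E2-KO and above 0 in E3-KO, and no point of Eif1a is filled.

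Other transcripts known from the 2-cell-like state were looked up from a list of 33 symbols, of which 19 had a row. Duxf3, the gene of Dux itself, had none. Only Pramef12 and Ddit4l had a mean of at least 1 FPKM. In the main test Ddit4l differed from WT by -0.53 (E1-KO), -0.01 (E2-KO) and 0.50 (E3-KO). It passed in none of them (limma-trend adjusted p = 0.0577, 0.964 and 0.0602). In the fit over all identifiers 3 of the 19 were called higher and 1 lower in E3-KO against WT, and 0 were called in E1-KO or E2-KO (limma-trend, with 1 and 5 at an unadjusted p under 0.05). Of all genes in that fit, 10.1% were called higher and 19.0% lower in E3-KO, and 22.7% and 21.1% were called in either direction in E1-KO and E2-KO. Their median log2 fold change was -0.03 (E1-KO), -0.01 (E2-KO) and 0.13 (E3-KO). The predicted gene Gm12794 (chromosome 4, 101940407 to 101943183) was 0.624 and 0.429 FPKM in WT, 0.233 and 0.303 in the E1-KO pair, 0.156 and 0.349 in the E2-KO pair and 1.42 and 1.66 in the E3-KO pair. Its groups lay around WT as those of Sp110 did, with the E1-KO and E2-KO samples below WT and the E3-KO samples above. It rose in E3-KO by 0.74 (standard error 0.112, limma-trend adjusted p = 0.00504).

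The deubiquitinase genes Usp17lc and Usp17ld, 2 of the 5 Usp17l copies in the list, also rose in E3-KO, by 0.36 and 0.19 (limma-trend adjusted p = 0.0215 and 0.019). Both calls were lost without WT replicate 1, WT replicate 2 or E3-KO replicate 1 (limma-trend adjusted p of 0.0501 to 0.13), and Usp17ld reached at most 0.185 FPKM. The 5 copies summed to 1.31 ± 0.179 FPKM in WT (SD, n = 2), a sum chosen after the values had been seen. The E1-KO mean was 1.12 ± 0.358, the E2-KO mean 1.59 ± 0.307 and the E3-KO mean 2.95 ± 0.0819 (SD, n = 2 each). Ubtfl1, a gene of preimplantation embryos, was 0.205 and 0.226 FPKM in WT and 1.31 and 0.408 in E3-KO, a difference that missed the threshold (limma-trend adjusted p = 0.102). Pramef12, from a family expressed in germ cells and early embryos, was the gene called lower in E3-KO, at 18.5 and 15.4 FPKM against 26.3 and 25.4 in WT (-0.58, limma-trend adjusted p = 0.00483).

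Among 14 genes listed as copies or relatives of the genes, 9 had a row. The predicted genes Gm2016 and Gm5662, both on chromosome 12, had their highest 2 values in E3-KO, like Gm12794. Sequence shared with other genes was examined only for the 9 genes of the list. How far Gm2016 and Gm5662, or the Usp17l copies, share reads is therefore unknown, and they may not be separate observations. Gm2016 was 1.08 and 0.877 FPKM in WT, 0.628 and 0.642 in the E1-KO pair, 0.637 and 0.728 in the E2-KO pair and 2.5 and 1.91 in the E3-KO pair. It rose in E3-KO by 0.69 (standard error 0.161, limma-trend adjusted p = 0.00813), a call that was lost without WT replicate 2 (0.0642). Gm2016 reached a mean of 1 FPKM, and so the main test, only through its E3-KO samples, and it fell below that mean without E3-KO replicate 1. In the fit over all identifiers, which has no such filter, the limma-trend adjusted p was 0.00874. Gm5662 went from 0.952 and 0.655 FPKM in WT to 1.58 and 1.74 in E3-KO (0.57, limma-trend adjusted p = 0.0146), which was lost without WT replicate 2 (0.0831) or E3-KO replicate 2 (0.0626). Eif1ax, the X-linked gene of eIF1A and the relative of Eif1a, behaved unlike Eif1a: it was 38.4 and 36.7 FPKM in WT, 77.0 and 71.8 in the E1-KO pair, 74.8 and 66.4 in the E2-KO pair and 54.4 and 58.5 in the E3-KO pair. It rose by 0.97, 0.89 and 0.57 (limma-trend adjusted p = 0.000291, 0.000464 and 0.00219), with no overlap between any knockout and WT. Eif1b, a gene of eIF1 rather than of eIF1A, was lower in E3-KO (-0.52, limma-trend adjusted p = 0.0218). The Eif1b call was lost after quantile normalization (-0.30, limma-trend adjusted p = 0.131) or median-ratio scaling (-0.36, limma-trend adjusted p = 0.0733). It was also lost when any 1 WT or E3-KO sample was left out (log2 fold changes -0.61 to -0.43). For the neighbours of Sp110 in the same family, Sp100 ranged from 0.0326 to 1.3 FPKM and Sp140 from 0.992 to 3.19, and neither passed against WT.

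**Figure D4:**
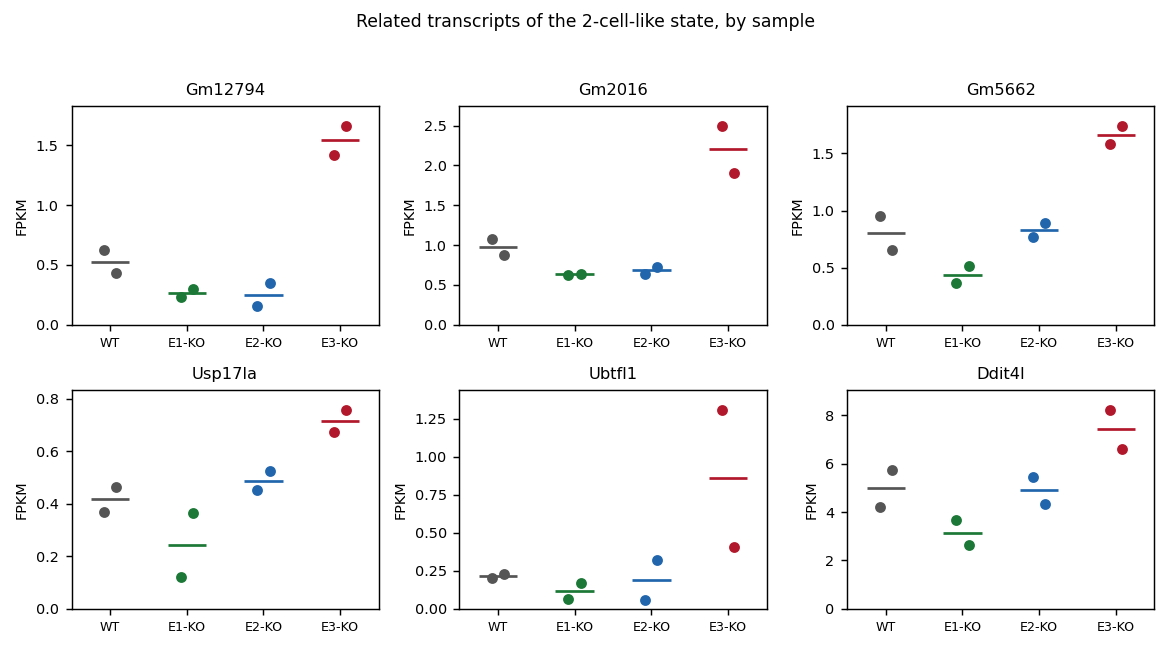
FPKM (vertical axis, linear, each panel with its own range from 0) of 6 related transcripts in the 4 groups; points are samples and lines the mean of 2. Both E3-KO samples of Gm12794 (1.42 and 1.66), Gm2016 (2.5 and 1.91) and Gm5662 (1.58 and 1.74) stand above every other sample, and the E3-KO samples of Ubtfl1 are far apart (1.31 and 0.408).

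All regulators looked up reached the main test. Their means over the 8 samples ran from 1.72 to 165 FPKM for the activators and from 7.74 to 831 FPKM for the repressors. Of 8 activators, all tested, 3 rose and 2 fell in E1-KO, 2 rose and 0 fell in E2-KO, and 3 rose and 1 fell in E3-KO. Among all genes tested, 15.0% rose and 22.9% fell in E1-KO, 14.2% rose and 21.9% fell in E2-KO, and 14.0% rose and 30.7% fell in E3-KO. Dppa2 rose in all 3 knockouts, from 21.5 and 20.9 FPKM in WT to 59.7 and 55.7 in the E1-KO pair, 66.0 and 45.4 in the E2-KO pair and 73.1 and 65.3 in the E3-KO pair. Its log2 fold changes were 1.40, 1.33 and 1.66 (standard error 0.157 each, limma-trend adjusted p = 0.000409, 0.000559 and 0.000131), and they passed in every alternative run. Its partner Dppa4 rose in E1-KO, from 66.3 and 65.6 FPKM in WT to 219 and 204 (1.67, limma-trend adjusted p = 0.009). This call was lost without WT replicate 2 (0.0527) or E1-KO replicate 1 (0.056). In E2-KO it was 111 and 63.8 FPKM and in E3-KO 72.8 and 187. Those differences of 0.35 and 0.81 did not pass (limma-trend adjusted p = 0.5 and 0.109).

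Trp53, the gene of p53, an activator of Dux, went from 132.3 and 133.2 FPKM in WT to between 165.3 and 187.3 in the knockouts. It rose in E1-KO (0.39, limma-trend adjusted p = 0.014), E2-KO (0.42, limma-trend adjusted p = 0.0106) and E3-KO (0.40, limma-trend adjusted p = 0.00939). These calls were lost without either WT sample (0.0629 to 0.0866). That in E1-KO was also lost without either E1-KO sample (0.0766 and 0.0912), and quantile normalization ended it in E1-KO (0.27, limma-trend adjusted p = 0.0583) and E2-KO (0.27, limma-trend adjusted p = 0.0561). Tbx3, a T-box factor that promotes Zscan4 expression, fell in E1-KO (-0.58, limma-trend adjusted p = 0.00403). The stress gene Gadd45a fell in E1-KO (-0.87, limma-trend adjusted p = 0.00877) and E3-KO (-0.88, limma-trend adjusted p = 0.0064), the former lost without WT replicate 2 (0.0643) or E1-KO replicate 1 (0.0582). Gadd45b rose in E3-KO (0.53, limma-trend adjusted p = 0.0469), which was lost in 10 alternatives, among them the replicate block (0.0641).

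Of 27 repressors, all tested, 5 rose and 2 fell in E1-KO, 6 rose and 3 fell in E2-KO, and 6 rose and 7 fell in E3-KO. Among all genes tested, 15.0% rose and 22.9% fell in E1-KO, and 14.2% rose and 21.9% fell in E2-KO. The split in E3-KO depended on the scaling: median-ratio scaling, which moves the median of all genes in E3-KO from -0.15 to 0.00, gave 8 higher and 3 lower. Under that scaling 20.9% of all genes were called higher and 21.0% lower in E3-KO, against 14.0% and 30.7% in the main test. The corepressor Trim28 went from 635.8 and 625.5 FPKM in WT to 916.1 and 905.3 in E1-KO and rose there by 0.53 (limma-trend adjusted p = 0.0116), a call lost without either WT or either E1-KO sample (0.0668 to 0.0881). Trim28 also rose in E2-KO (0.51, limma-trend adjusted p = 0.014) and E3-KO (0.48, limma-trend adjusted p = 0.0144). These calls too were lost without either WT sample (0.0787 to 0.0996), in E2-KO after quantile normalization (0.40, limma-trend adjusted p = 0.0644), and in E3-KO without E3-KO replicate 2 (0.0518). Ehmt1, a methyltransferase of histone H3 lysine 9, rose in E1-KO by 0.89 (limma-trend adjusted p = 0.00478). Its rise in E3-KO (0.55, limma-trend adjusted p = 0.0299) was lost without WT replicate 1 (0.116), WT replicate 2 (0.105) or E3-KO replicate 2 (0.18). The nucleolar protein gene Ncl rose in all 3 knockouts (0.92, 0.73 and 0.69). The Ncl calls were lost in E1-KO without WT replicate 2 (0.0604) or E1-KO replicate 1 (0.0633), in E2-KO without either WT sample (0.0875 and 0.12) or E2-KO replicate 1 (0.41, limma-trend adjusted p = 0.0907) or after quantile normalization (0.48, limma-trend adjusted p = 0.0832), and in E3-KO without either WT sample (0.081 and 0.115) or E3-KO replicate 2 (0.117). In the fit over all identifiers the limma-trend adjusted p was 0.0655 for Ncl in E2-KO, 0.0634 for Ncl in E3-KO, 0.0678 for Ehmt1 in E3-KO and 0.0673 for Lin28a in E2-KO, so these calls were lost there too.

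Lin28a, an RNA-binding protein gene, was 10.1 and 11.6 FPKM in WT, 31.9 and 25.2 in the E1-KO pair, 32.9 and 16.8 in the E2-KO pair and 9.34 and 15.2 in the E3-KO pair. It rose in E1-KO (1.31, limma-trend adjusted p = 0.00879) and E2-KO (1.06, limma-trend adjusted p = 0.0227) and was lower in E3-KO than in E1-KO (-1.18, limma-trend adjusted p = 0.0189). The Lin28a calls were lost in E1-KO without WT replicate 1 (0.055) or E1-KO replicate 1 (0.0687), and in E2-KO without either WT sample (0.111 and 0.0775) or E2-KO replicate 1, where the change was 0.59 (0.129). Mga, a subunit of a noncanonical Polycomb complex, fell in all 3 knockouts, with -0.41 in E1-KO (limma-trend adjusted p = 0.0138), -0.64 in E2-KO (limma-trend adjusted p = 0.00218) and -0.64 in E3-KO (limma-trend adjusted p = 0.00152). The E1-KO call was lost without WT replicate 1 (0.0961), WT replicate 2 (0.0622) or E1-KO replicate 2 (0.11). Rybp, of the same class of complexes, fell in E3-KO (-0.60, limma-trend adjusted p = 0.00146). Rif1, which represses Zscan4 at telomeric regions, fell in E2-KO (-0.54, limma-trend adjusted p = 0.015), a call lost without either WT sample (0.08 and 0.0776).

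**Figure D5:**
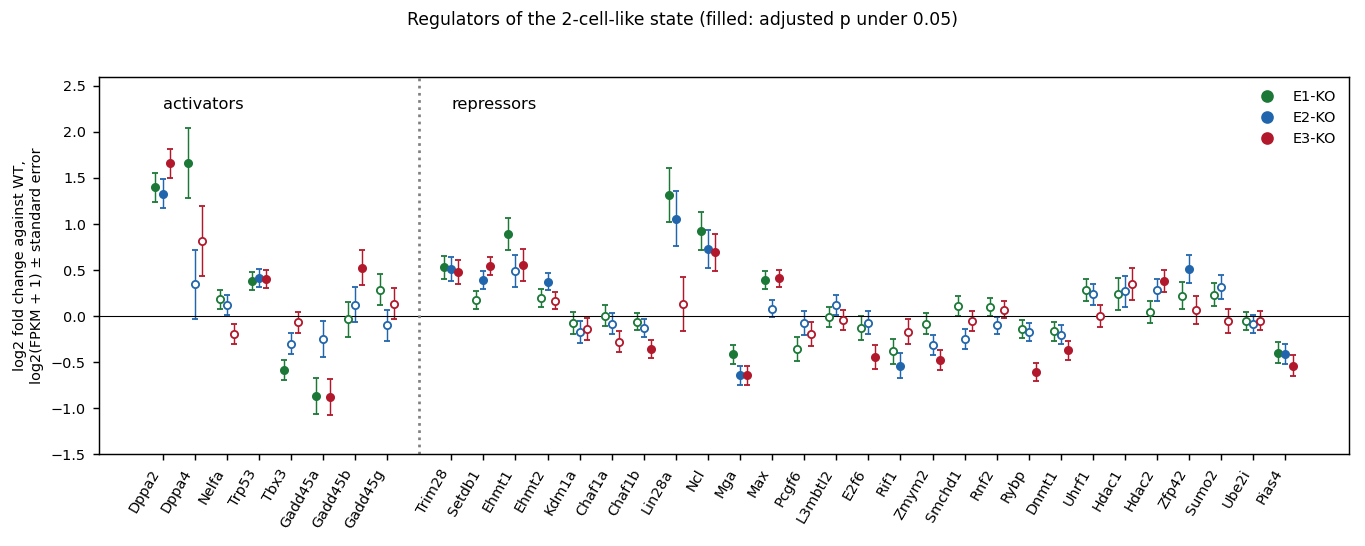
Log2 fold change against WT on the log2(FPKM + 1) scale (vertical axis, bars are the standard error) of 8 activators and 27 repressors of the 2-cell-like state in the 3 knockouts, with filled points where the limma-trend adjusted p was under 0.05. Dppa2 is above 0 in all 3 (1.40, 1.33 and 1.66), and the repressors lie on both sides of 0.

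Markers of other cell types were read in the same samples. Of 7 markers of primitive endoderm 5 had a row, and their sum was 1.59 to 1.65 FPKM in WT, 0.736 to 0.851 with E1 lost, 1.03 to 1.23 with E2 lost and 2.44 to 4.69 with E3 lost. Like Sp110 and Gm12794, this sum was lower in both E1-KO and E2-KO than in WT and higher in E3-KO. Gata6 made up most of it, at 1.04 and 1.15 FPKM in WT and 3.72 and 1.76 in E3-KO, with a difference of 0.79 in E3-KO in the fit over all identifiers (limma-trend adjusted p = 0.0477). The mean of Gata6 over all samples reached the 1 FPKM of the main test only with its E3-KO samples counted (limma-trend adjusted p = 0.0252 there), and the call was lost without WT replicate 1 (0.105) or WT replicate 2 (0.0875). Sox17, Sox7, Pdgfra and Foxa2 stayed under 1 FPKM in every sample, Foxa2 was 0 in both E3-KO samples, and Gata4 and Dab2 had no row. The sum of 7 fibroblast markers, which would show feeder cells, was 3.26 to 3.28 FPKM in WT, 5.34 to 5.60 in E1-KO, 3.37 to 4.34 in E2-KO and 4.54 to 4.90 in E3-KO, with Col3a1, Dcn and Lum at 0 in 4 or more of the 8 samples. Thy1 rose in E1-KO (1.03, limma-trend adjusted p = 0.00177), E2-KO (0.51, limma-trend adjusted p = 0.0376) and E3-KO (1.06, limma-trend adjusted p = 0.00117), the E2-KO call being lost without WT replicate 1 (0.0987), WT replicate 2 (0.181) or E2-KO replicate 2 (0.34, limma-trend adjusted p = 0.175). Pdgfrb, the other fibroblast marker in the main test, did not rise. Its differences were -0.01 (E1-KO), -0.36 (E2-KO) and -0.43 (E3-KO), and none passed (limma-trend adjusted p = 0.972, 0.104 and 0.0538). The 7 stem cell markers summed to 1893 and 1937 FPKM in WT, 1876 and 1951 in the E1-KO samples, 2123 and 1979 in the E2-KO samples and 1759 and 1579 in the E3-KO samples. The part of these markers in the E3-KO results was not tested.

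The genes whose levels ran most like the Zscan4 sum over the 8 samples were Phf11d, Cdh4, Thap8, Col26a1 and Cysltr2, with Pearson correlations of log2(FPKM + 1) from 0.977 to 0.981. Phf11d, for example, was 67.5 and 63.6 FPKM in WT, 66.9 and 70.8 in the E1-KO pair, 93.7 and 74.4 in the E2-KO pair and 99.3 and 99.4 in the E3-KO pair. These correlations are descriptions: they are the highest of 11304 genes over 8 samples that share 4 groups.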

How the data were processed

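Total RNA libraries of 8 samples (4 groups of 2) had been sequenced as paired reads of 150 bases, per the labels' protocols. Trimmomatic 0.36, TopHat2 2.0.12, Cufflinks 2.2.1 and the build mm9 appear in the submitters' processing notes, without roles. The authors deposited 1 value per gene and sample, taken here as FPKM because Cufflinks gives this unit and the values are not whole. No header states it. The annotation, the strand setting and the treatment of reads that fit several copies are not given in the sources used here. Coordinates and sequences are of GRCm38 (GENCODE M21, RefSeq), not of mm9, and only name and describe the genes.

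Each file held 18774 rows with 17812 identifiers (17262 with a symbol). Of 660 repeated identifiers, 622 kept the row that fitted the file's genome order, and 38 were left out. No gene of the list was repeated. Tests used limma 3.58.1 (R 4.3.3, lmFit and eBayes with trend) on log2(FPKM + 1), all 8 samples, the group as the only term, 4 residual degrees of freedom, two-sided, for the 11304 genes whose mean reached 1 FPKM. The main test was also run on simulated, independent values for genes reaching 1 FPKM, which says nothing about the fit over all identifiers. Genes named beyond the 9 were, per list and comparison with WT, up to 4 with an adjusted p under 0.05 and the largest change, plus the 5 genes of highest correlation with the Zscan4 sum. Gm12794, Gm5662, Usp17lc, Usp17ld, Ubtfl1, Ddit4l, Sp100, Sp140, the markers of other cell types named singly and the Usp17l sum were chosen after their values were seen. The genes, lists and tests were chosen with earlier results of these data known. With 2 samples per group, which the labels call biological duplicates, p-values measure only the spread between these samples. A permutation of 2 against 2 samples could not pass 0.05. Alternatives were other pseudocounts, filters and scalings, a replicate block, single pairs, left-out samples and summed rows; the combinations of 2 such choices, and the repeats for Gata6 and Thy1, were chosen after seeing the data. Figures were drawn with matplotlib 3.10.9.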

Additional observations from a re-analysis of the deposited data

Results flagged for a closer look

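Several genes changed differently in 2 knockouts, as tested by comparing the knockouts directly (limma-trend, log2(FPKM + 1)). Of all genes, 25.7% were called in E3-KO against E1-KO in the main test and 16.3% in the fit over all identifiers. In E3-KO against E2-KO these shares were 15.5% and 7.99%. Between E3-KO and E1-KO, the differences were 0.85 for Zscan4f, 0.84 for the Zscan4 sum and 0.86 for Sp110. The related transcripts Gm12794, Gm2016 and Gm5662 differed by 1.00, 0.96 and 0.89. Tbx3 was higher in E3-KO by 0.52, Ddit4l by 1.03 and Gata6 by 1.42. Lin28a (-1.18), Rybp (-0.47), Pramef12 (-0.45) and Eif1ax (-0.39) were lower in E3-KO.

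Between E3-KO and E2-KO, Sp110 differed by 1.00, Gm12794 by 1.02, Gm2016 by 0.92, Gm5662 by 0.54 and Gata6 by 1.28. Rybp was lower in E3-KO (-0.43). No gene named here differed between E2-KO and E1-KO by this test. The limma-trend adjusted p-values lay between 0.0032 (Gm2016 and Gata6, E3-KO against E1-KO) and 0.0427 (Gm5662, E3-KO against E2-KO). Gm2016 and Gata6 reached the mean of 1 FPKM needed for the test only through their E3-KO samples.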

How the results depend on the processing

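The main test saw 1 gene of the list, Eif1a, and called it in no comparison. Testing all genes above 0 gave 2 calls in E2-KO against WT, 3 in E3-KO against WT, 2 in E3-KO against E1-KO and 1 in E3-KO against E2-KO. Of all genes, 21.1%, 29.1%, 16.3% and 7.99% were called in these comparisons. Combined with that filter, a pseudocount of 0.1 gave 1, 2, 1 and 1 (3734, 5072, 2900 and 1418 of all 17774 genes). Median-ratio scaling gave 1, 3, 2 and 1 (20.3%, 27.3%, 15.9% and 8.06% of all genes). Quantile normalization gave 1, 3, 1 and 1 (20.4%, 26.6%, 15.3% and 7.36% of all genes). The replicate block with that filter gave 0, 3, 1 and 1 (3265, 4713, 2431 and 930 of all 17774 genes). Over the genes of the main test, same-numbered samples did not deviate together (mean correlation 0.006 over 6 pairs of groups, -0.042 to 0.091). A batch that touches few genes could escape this measure, and the labels do not say whether the numbers mark one. With the Zscan4 copies summed, E2-KO against WT, E3-KO against WT and E3-KO against E1-KO had 1 call each (4079, 5055 and 2908 of all 11305 genes). Quantile normalization alone gave 1 call in each of the E3-KO comparisons just named (42.2% and 24.9% of all genes). This was because Zscan4f, just under the mean of 1 FPKM and highest in E3-KO, then entered the test. Over all fits that left out 1 replicate, the calls ranged from 0 to 1 in E1-KO and E2-KO against WT, 0 to 3 in E3-KO against WT, 0 to 2 in E3-KO against E1-KO and 0 to 1 in E3-KO against E2-KO. A group left with 1 sample is assumed there to vary like the others. Signs turned only for differences that had not passed: Eif1a with median-ratio scaling (0.034 in E2-KO, 0.023 in E3-KO) and without E2-KO replicate 2 (left-out range -0.23 to 0.14 in E2-KO), and Zscan4f in E1-KO with a pseudocount of 0.1 (-0.0060), without WT replicate 2 (-0.12) and without E1-KO replicate 2 (range -0.22 to 0.26). The causes were not tested. Of 64 gene results, only 26 kept direction and call under every alternative run. Of the 956 repeats over them, 814 kept direction and call, 134 lost the call, 2 gained one and 6 turned sign. The repeats include results that had not passed and left-out samples of groups not compared. The Tcstv genes could not be summed, as they had no row.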
